A study of Homo sapiens with 6 samples.

Results

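The 32 genes described here encode chaperones, disulfide isomerases and degradation factors of the endoplasmic reticulum (ER) and the sensors and transcription factors of the unfolded protein response (UPR). They were taken by gene symbol from a list of names, chosen with earlier results of these data known. The list gave 32 of the 21519 genes of the co-culture study and 27 of the 9450 genes of the knockdown study. MANF, PDIA6, SYVN1, DERL1 and XBP1 had no row in the knockdown table, which lists genes with an m7G peak, and were not analysed there. Libraries came from DLD1, an established human colorectal cancer cell line grown in DMEM with serum and antibiotics. The library S-CAFs-w13 was made from wild-type DLD1 cells kept in co-culture with fibroblasts called S-CAFs. The library DLD1-W13CM, also wild type, was taken as the co-culture with CAFs by elimination, since its title neither names the culture nor explains the letters CM. The series title speaks of senescent CAFs, cancer-associated fibroblasts. Knockdown cells stably carried the METTL1 short hairpin sh2, a single construct, and control cells carried sh-NT; each line gave 1 input library and 1 library of RNA pulled down for 7-methylguanosine (m7G). The series design mentions replications of these lines, but the labels hold 1 library of each kind. With 1 library per group no difference below has a replicate check or a test across libraries.

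The ER folds secreted and membrane proteins. HSPA5 (BiP) holds unfolded chains and also binds the lumenal parts of the sensors IRE1 (ERN1), PERK (EIF2AK3) and ATF6, which are set free when unfolded protein builds up. IRE1 splices XBP1 mRNA, ATF6 is cut in the Golgi to release a transcription factor, and PERK phosphorylates eIF2-alpha, which slows translation and favours ATF4 and DDIT3 (CHOP). ATF6 and spliced XBP1 bind promoter elements of chaperone genes and of genes that return misfolded proteins to the cytosol for degradation.

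Matches to such elements are shown first, since the members that hold one had very different ratios. In RefSeq promoter windows of GRCh38.p14, from 250 bases before to 50 after a gene's start, 29 of the 32 members had a window. PDIA3, SEC24D and DERL1 are the others. Windows were searched on both strands for the ER stress element ERSE (CCAAT, any 9 bases, CCACG), for ERSE-II (ATTGG, any 1 base, CCACG) and for the unfolded protein response element (TGACGTGG). ERSE was found in 8 of 29 members (27.6%) and in 25 of all 27305 genes with a window (0.0916%). ERSE-II was found in 3 of 29 members (10.3%) and in 19 of all genes (0.0696%). The third motif was in 2 members, HYOU1 and DNAJC10 (6.90%), and in 253 of all genes (0.927%), and its match in HYOU1 overlapped an ERSE-II match. The fixed letters of each match are in capitals below, each line reading on the strand that carries the motif. The first 5 lines belong to members at least 2-fold higher in S-CAFs-w13. The last 3 belong to some of the members with ERSE and a smaller ratio.
HSPA5, chr9:125241385-125241414, minus strand: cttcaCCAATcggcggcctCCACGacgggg
HSP90B1, chr12:103930211-103930240, plus strand: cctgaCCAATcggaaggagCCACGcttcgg
HSP90B1, chr12:103930315-103930344, minus strand: acccaCCAATcgcgccgcaCCACGcaccca
ERO1B, chr1:236282178-236282207, plus strand: ggcggCCAATgaggcgggaCCACGcgggcc
HERPUD1, chr16:56932016-56932045, plus strand: cggacgccgATTGGgCCACGttgggagagt
CALR, chr19:12938378-12938407, minus strand: accgaCCAATgatggtcgaCCACGcgtggg
XBP1, chr22:28800597-28800626, minus strand: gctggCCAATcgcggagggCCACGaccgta
CRELD2, chr22:49918548-49918577, minus strand: atggcCCAATccgagttcgCCACGagaggt

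The match in HSPA5 lay at -66 to -48 from the gene's start, that in XBP1 at -52 to -34, and that in HERPUD1 at -117 to -107. The other members with ERSE were CANX and PDIA6, and the other members with ERSE-II were HYOU1, with a pair of matches, and SDF2L1. These members also stayed under 2-fold in S-CAFs-w13. Of the 11 members with ERSE or ERSE-II, 4 were at least 2-fold higher there, with a median log2 ratio of 0.41. Of the 18 members with a window and neither match 4 were, with a median of 0.66. A match describes letters in a window and no binding was measured. The members were listed as ER and UPR genes and the motifs are UPR elements. Their shares beside those of all genes are thus a description and no test.

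Effective library sizes recovered from the FPKM steps were 6215547 for S-CAFs-w13, 6337932 for DLD1-W13CM, 11625162 for knockdown input and 10454179 for control input. METTL1, the targeted gene, stood at 3.28 FPKM in knockdown input and 5.80 FPKM in control input, and at 1.78 FPKM in S-CAFs-w13 and 4.82 FPKM in DLD1-W13CM. DLD1 identity was checked on 10 colon epithelial markers, all measured, which summed to 3199 FPKM in S-CAFs-w13 and 2093 FPKM in DLD1-W13CM. The keratins KRT8, KRT18 and KRT19 made up most of both sums; in S-CAFs-w13 a total of 6 were higher and 4 lower. Lower were EPCAM, CDH1, VIL1 and the intestinal transcription factor CDX2, which had 6.83 FPKM in S-CAFs-w13 and 19.0 FPKM in DLD1-W13CM, 2.78-fold lower. Of 20 fibroblast markers 11 were in that table, none at 0, and they summed to 13.9 FPKM in S-CAFs-w13 and 11.3 FPKM in DLD1-W13CM. In S-CAFs-w13, 8 of these had higher values and 3 lower ones, most from few reads. COL1A1, a collagen among these markers, stood at 0.229 FPKM in S-CAFs-w13 and 0.0482 FPKM in DLD1-W13CM, from at least 14 and 3 reads. PDGFRB stood at 0.564 FPKM in S-CAFs-w13 and 0.0221 FPKM in DLD1-W13CM, from at least 25 and 1 reads. COL6A1 had 0.331 and 0.0295 FPKM in the same order, from at least 11 and 1 reads. FN1 (fibronectin), with the most reads of the 11, was lower, at 1.71 FPKM in S-CAFs-w13 and 3.12 FPKM in DLD1-W13CM, from at least 184 and 342 reads. Fewer cells of a type and less RNA per cell cannot be told apart in such bulk libraries. The 13 mRNAs of the mitochondrial genome summed to 27838 FPKM in S-CAFs-w13 and 71011 FPKM in DLD1-W13CM, and the nuclear RNA MALAT1 stood at 5201 and 1014 FPKM in the same order. NEAT1, another nuclear RNA, stood at 253 FPKM in S-CAFs-w13 and 21.2 FPKM in DLD1-W13CM, 11.9-fold higher. The part of these differences in the results below was not tested, apart from a rescaling without mitochondrial genes.

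The first comparison sets S-CAFs-w13 against DLD1-W13CM, with the doubt about the culture of DLD1-W13CM given above. In S-CAFs-w13, 9 of 32 members were higher by 2-fold or more, and 0 were lower by as much. They were HSPA5, HSP90B1, MANF, PDIA4, ERO1B, HERPUD1, SEL1L, SEC24D and DDIT3. A gene was counted when log2((FPKM + 1)/(FPKM + 1)) reached 1 either way, among genes averaging 1 FPKM or more, which all 32 members did. By the same count 9.08% of all 14739 genes were higher and 7.92% lower. The members' median log2 ratio was 0.50, and that of all genes 0.02. Since the members were chosen with earlier results known, their difference from all genes is a description and no test. Folds are ratios of FPKM without the added 1, with their 95% counting intervals in parentheses, which cover counting error only. Each interval rests on recovered library sizes and read numbers, the smallest reads that left gene lengths whole and, where possible, equal in both tables. That interval lay above 2-fold for 8 members, all of those named except SEL1L, and for 4.61% of all genes. It lay above no change for 24 members and below no change for PPP1R15A and DERL2, against 28.2% above and 25.4% below among all genes.

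**Figure D1:**
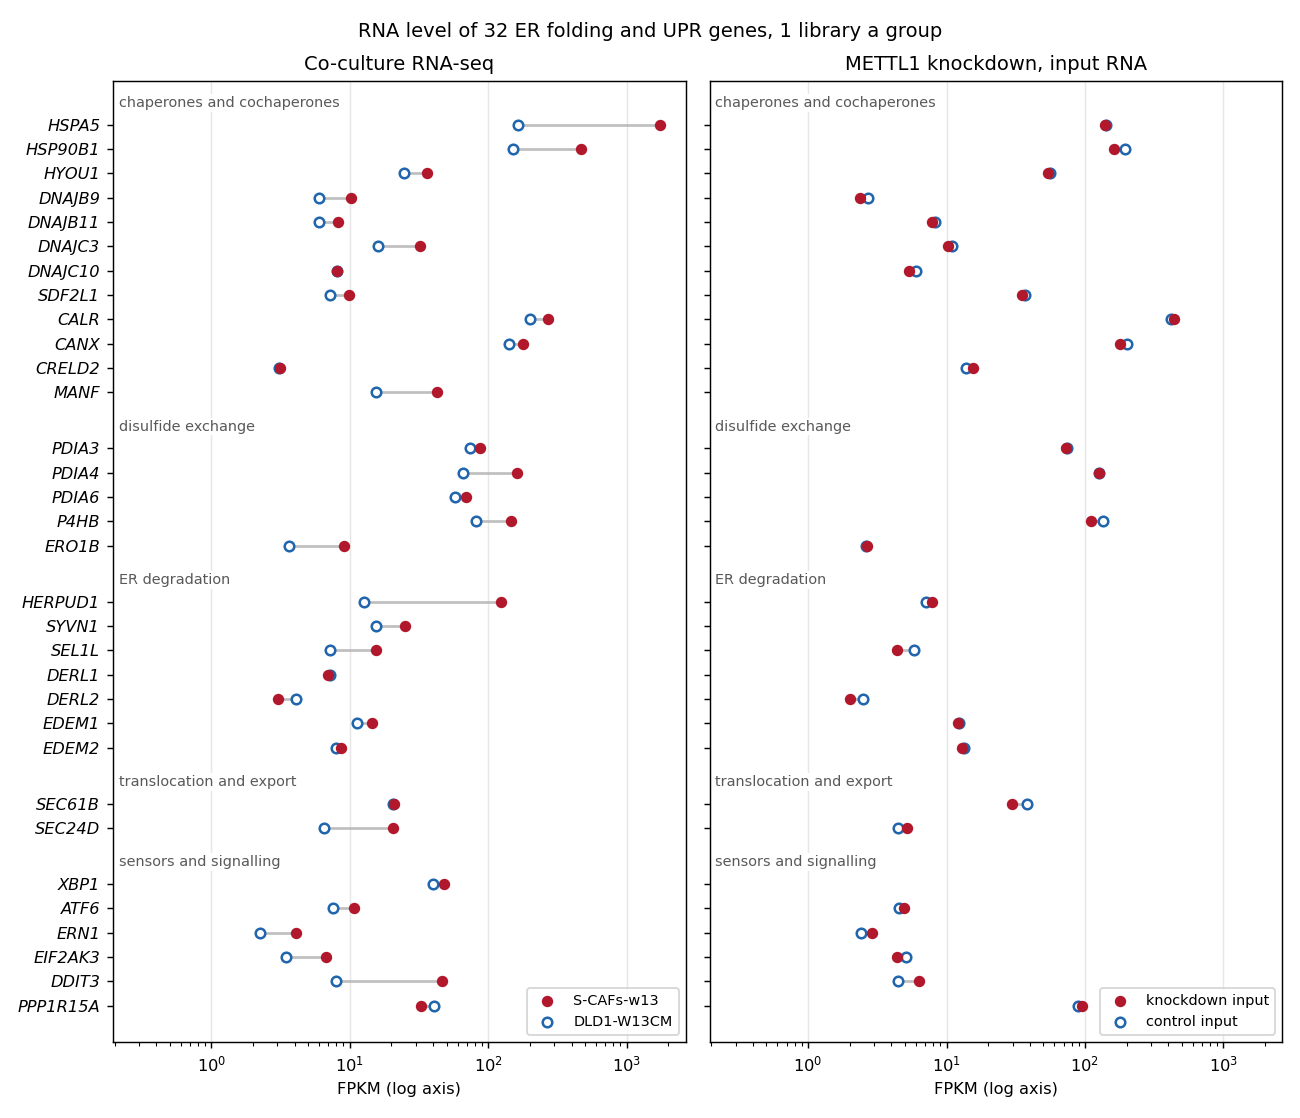
FPKM on a log axis of each member, grouped by role, with filled points for S-CAFs-w13 and knockdown input and open points for DLD1-W13CM and control input, 1 library each. HSPA5, HERPUD1 and DDIT3 have the widest gaps in the co-culture panel, while the points of most members nearly coincide in the knockdown panel.

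HSPA5 had the highest ratio of all members. It stood at 1733 FPKM in S-CAFs-w13 and 165 FPKM in DLD1-W13CM, 10.5-fold higher (10.2 to 10.9), from at least 42084 and 4075 reads. In S-CAFs-w13 it was the gene of rank 16 by FPKM in the whole table, against rank 107 in DLD1-W13CM. Its ratio on the log2(FPKM + 1) scale, 3.39, was rank 30 from the highest of 14739 genes. HSPA5 made up 47.3% of the members' summed FPKM in S-CAFs-w13 and 13.5% in DLD1-W13CM. The members' sum was 3661 FPKM in S-CAFs-w13 and 1222 FPKM in DLD1-W13CM, and without HSPA5 it was 1928 and 1057 FPKM in the same order, 1.82-fold higher. HSP90B1 (GRP94), the HSP90 of the ER, had 470 FPKM in S-CAFs-w13 and 151 FPKM in DLD1-W13CM, 3.12-fold higher (3.01 to 3.22). The quotient of HSPA5 over HSP90B1 was thus 3.68 in S-CAFs-w13 and 1.09 in DLD1-W13CM. MANF, a small ER protein that is secreted under stress, had 42.7 FPKM in S-CAFs-w13 and 15.5 FPKM in DLD1-W13CM, 2.75-fold higher (2.34 to 3.23).

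The remaining 9 chaperones and cochaperones stayed under the 2-fold count. DNAJC3 (p58IPK), a cochaperone of BiP, came closest, with 32.2 FPKM in S-CAFs-w13 and 16.0 FPKM in DLD1-W13CM. It was 2.01-fold higher in FPKM (1.82 to 2.23) but had a log2 ratio of 0.97 with 1 FPKM added. DNAJB9, another J-domain cochaperone, was 1.72-fold higher (1.35 to 2.21), at 10.3 FPKM in S-CAFs-w13 and 5.95 FPKM in DLD1-W13CM. HYOU1, an exchange factor for BiP, had 35.9 and 24.5 FPKM in the same order, 1.46-fold higher (1.36 to 1.58). The lectin chaperones CALR and CANX were abundant in both libraries: CALR had 269 FPKM in S-CAFs-w13 and 202 FPKM in DLD1-W13CM, and CANX 179 and 141 FPKM in the same order. Their folds of 1.33 (1.28 to 1.39) and 1.27 (1.22 to 1.31) higher were small beside that of HSPA5. DNAJB11, a cochaperone, had 8.25 FPKM in S-CAFs-w13 and 6.03 FPKM in DLD1-W13CM, 1.37-fold higher (1.15 to 1.64). The intervals of DNAJC10 (0.912 to 1.08), SDF2L1 (0.933 to 2.01) and CRELD2 (0.765 to 1.36) included no change. DNAJC10 had 8.06 FPKM in S-CAFs-w13 and 8.12 FPKM in DLD1-W13CM. CRELD2 was low, at 3.11 FPKM in S-CAFs-w13 and 3.05 FPKM in DLD1-W13CM, from at least 100 reads in each.

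**Figure D2:**
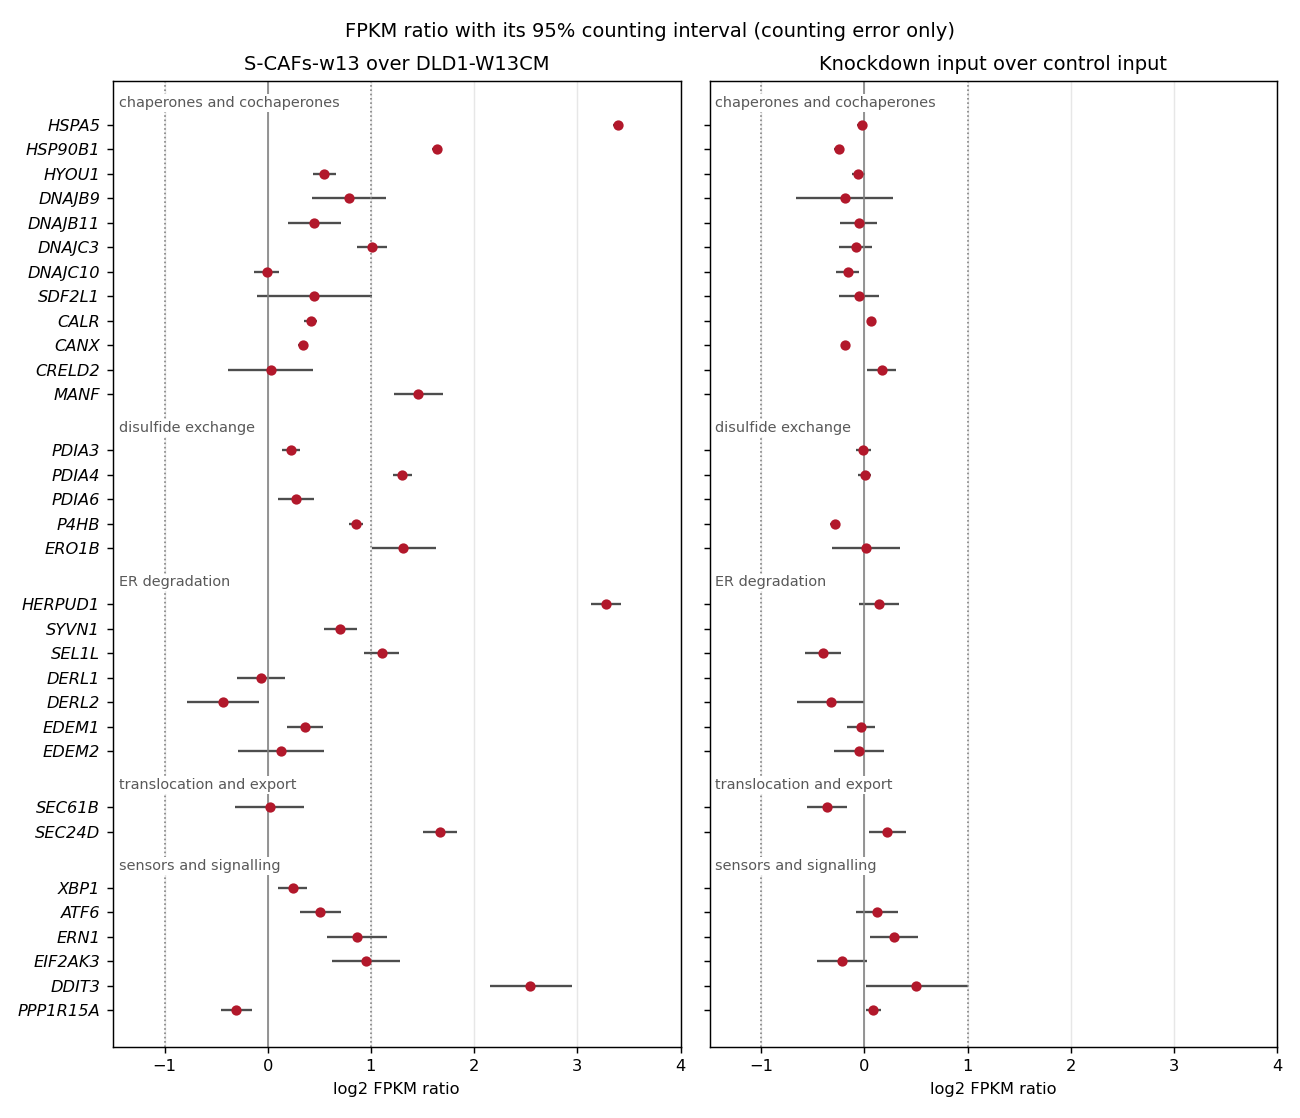
Log2 FPKM ratio of each member (points) with its 95% counting interval (lines), S-CAFs-w13 over DLD1-W13CM on the left and knockdown input over control input on the right, with a solid line at no change and dotted lines at 2-fold. The left panel spreads from DERL2 below 0 to HSPA5 above 3, and the right panel keeps every point within the dotted lines.

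Among the enzymes of disulfide exchange, all 5 had an interval above no change and 2 were at least 2-fold higher, in the values as deposited. PDIA4 (ERp72) had 161 FPKM in S-CAFs-w13 and 65.4 FPKM in DLD1-W13CM, 2.47-fold higher (2.32 to 2.63). ERO1B, which reoxidizes protein disulfide isomerase, had 9.003 FPKM in S-CAFs-w13 and 3.62 FPKM in DLD1-W13CM, 2.49-fold higher (2.01 to 3.09). P4HB, the founding protein disulfide isomerase, had 147 FPKM in S-CAFs-w13 and 81.3 FPKM in DLD1-W13CM, 1.81-fold higher (1.72 to 1.89). PDIA3, the partner of CALR and CANX, had 86.9 FPKM in S-CAFs-w13 and 74.4 FPKM in DLD1-W13CM, 1.17-fold higher (1.099 to 1.24). PDIA6, another isomerase, had 69.4 and 57.6 FPKM in the same order, 1.21-fold higher (1.07 to 1.36). Isomerases of similar abundance in DLD1-W13CM, such as PDIA4 and PDIA3, thus had ratios whose intervals did not meet.

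ER degradation went both ways. HERPUD1, which helps assemble the retrotranslocation complex, had 123 FPKM in S-CAFs-w13 and 12.7 FPKM in DLD1-W13CM, 9.69-fold higher (8.75 to 10.7). SEL1L, the scaffold of the ubiquitin ligase SYVN1 (HRD1), had 15.4 FPKM in S-CAFs-w13 and 7.16 FPKM in DLD1-W13CM, 2.15-fold higher (1.91 to 2.41). Its log2 ratio of 1.005 with 1 FPKM added lay just past the 2-fold limit. SYVN1 itself had 25 FPKM in S-CAFs-w13 and 15.4 FPKM in DLD1-W13CM, 1.63-fold higher (1.46 to 1.82). EDEM1, which marks glycoproteins for degradation, had 14.4 and 11.2 FPKM in the same order, 1.28-fold higher (1.14 to 1.45). The intervals of EDEM2 (0.820 to 1.46) and DERL1 (0.815 to 1.12) included no change. DERL2, a derlin of the same complex, had 3.02 FPKM in S-CAFs-w13 and 4.08 FPKM in DLD1-W13CM, 1.35-fold lower (1.06 to 1.72).

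SEC24D, a cargo-binding subunit of COPII vesicles that leave the ER, had 20.7 FPKM in S-CAFs-w13 and 6.49 FPKM in DLD1-W13CM, 3.18-fold higher (2.85 to 3.57). SEC61B, a subunit of the translocation channel, had 20.7 FPKM in S-CAFs-w13 and 20.4 FPKM in DLD1-W13CM, with an interval of 0.805 to 1.28 for the ratio.

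The sensors were higher by less than 2-fold. EIF2AK3 (PERK) had 6.69 FPKM in S-CAFs-w13 and 3.46 FPKM in DLD1-W13CM, 1.94-fold higher (1.54 to 2.44). ERN1 (IRE1) had 4.07 FPKM in S-CAFs-w13 and 2.24 FPKM in DLD1-W13CM, 1.82-fold higher (1.49 to 2.23), and ATF6 had 10.7 and 7.50 FPKM in the same order, 1.42-fold higher (1.25 to 1.63). All 3 had intervals above no change. XBP1, whose mRNA is spliced by IRE1, had 47.6 FPKM in S-CAFs-w13 and 40.2 FPKM in DLD1-W13CM, 1.18-fold higher (1.07 to 1.303). These values are per gene and do not tell spliced from unspliced XBP1. The transcription factor DDIT3 had 46.4 FPKM in S-CAFs-w13 and 7.98 FPKM in DLD1-W13CM, 5.82-fold higher (4.45 to 7.71), from at least 365 and 64 reads. PPP1R15A (GADD34), which brings a phosphatase to eIF2-alpha and is a known target of the same arm as DDIT3, had 32.8 FPKM in S-CAFs-w13 and 40.5 FPKM in DLD1-W13CM, 1.23-fold lower (1.11 to 1.37).

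**Figure D3:**
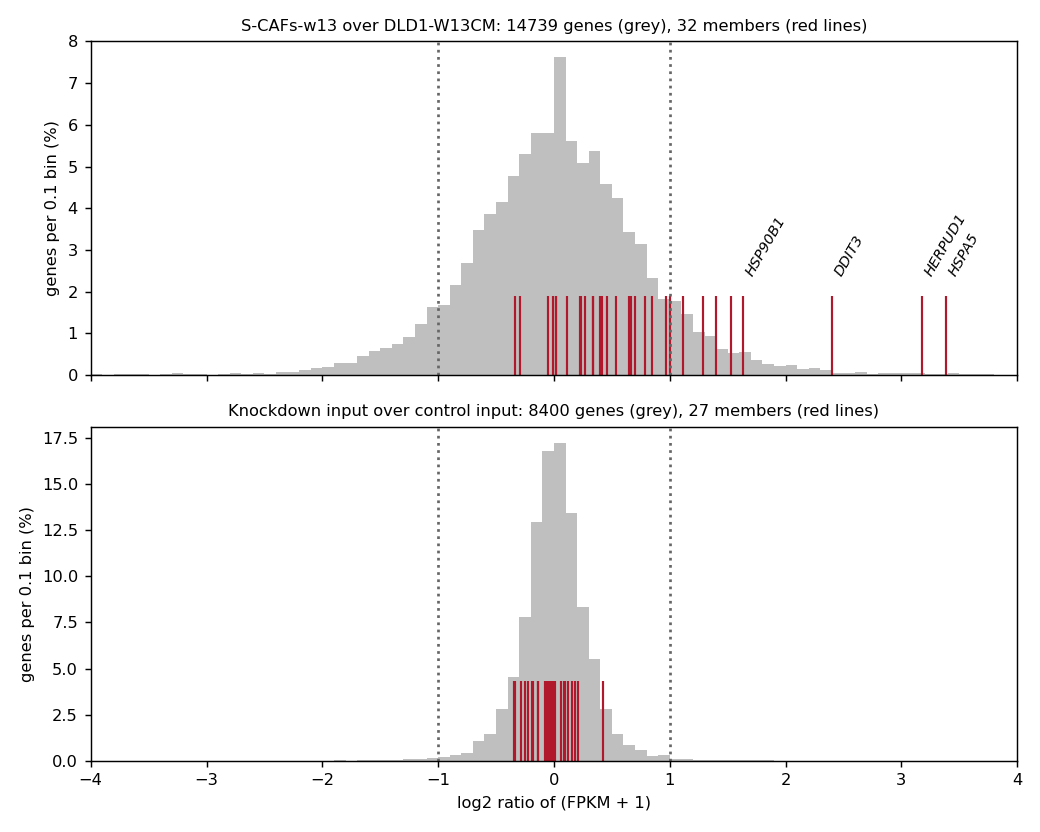
Distribution of the log2 ratio of (FPKM + 1) over all genes averaging 1 FPKM or more (grey, percent of genes per bin of 0.1) with each member as a red line, S-CAFs-w13 over DLD1-W13CM above and knockdown input over control input below, and dotted lines at 2-fold. Members lie mostly to the right of 0 in the upper panel, 28 of 32 against 52.3% of all genes, and around 0 in the lower panel, 10 of 27 above it against 51.2% of all genes.

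Direction depended in part on scaling. Rescaled without mitochondrial genes, which moved the median of all genes to -0.16, the members' median was 0.27. Then 23 of 32 members and 39.4% of all genes were above 0, against 28 members and 52.3% of all genes as deposited. SEL1L and ERO1B were then no longer at least 2-fold higher, and 7 members still were. Among members with small folds, log2 ratios were then -0.02 for PDIA3, 0.03 for PDIA6, 0.10 for CANX and -8.4e-05 for XBP1. Of all genes past 2-fold, 35.0% were then higher, against 53.4% as deposited. By the authors' deposited table, a total of 8 members had a log2 fold change of at least 1, all of the 9 but SEL1L, 25 of 32 members and 43.8% of all genes were above 0, and 41.3% of all genes past 2-fold were higher.

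Of 104 further genes of ER folding, degradation, translocation, COPII transport and UPR signalling, 100 averaged 1 FPKM or more in the co-culture table. In S-CAFs-w13, 11 passed 2-fold upward and 0 downward, a share of higher genes near the 9.08% of all genes, with a median log2 ratio of 0.06. By function, 6 of 34 translocation and COPII genes, 3 of 18 signalling genes, 2 of 22 degradation genes and 0 of 26 folding genes were at least 2-fold higher. The 5 highest included 3 of COPII transport or membrane targeting. SEC24A, a paralog of SEC24D, had 45.9 FPKM in S-CAFs-w13 and 14.7 FPKM in DLD1-W13CM, 3.13-fold higher (2.86 to 3.42). SRPRA, a subunit of the signal recognition particle receptor, was 3.02-fold higher (2.81 to 3.25), and SEC31A, of the COPII coat, 3.35-fold higher (2.94 to 3.83). KDELR3, which retrieves chaperones from the Golgi, was 2.56-fold higher (2.15 to 3.06). PPP1R15B, the constitutive counterpart of PPP1R15A, had 91.4 FPKM in S-CAFs-w13 and 36.3 FPKM in DLD1-W13CM, 2.52-fold higher (2.36 to 2.70).

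The knockdown comparison asks what reduced METTL1 does to RNA levels. None of the 27 measured members reached 2-fold: 0 were higher and 0 lower by as much in knockdown input, where 0.429% of all 8400 genes were higher and 0.56% lower. The members' median log2 ratio was -0.05, beside 0.01 for all genes, with a range of -0.35 to 0.42. The counting interval lay above no change for 6 members and below it for 6, while 24.7% of all genes lay above and 22.9% below. HSPA5 had 140 FPKM in knockdown input and 143 FPKM in control input, with an interval of 0.9501 to 1.02 for the ratio. The interval included no change for 15 members, HYOU1, DNAJB9, DNAJB11, DNAJC3, SDF2L1, PDIA3, EDEM1, EDEM2 and DERL2 among them.

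Among chaperones, HSP90B1 had 163 FPKM in knockdown input and 194 FPKM in control input, 1.19-fold lower (1.16 to 1.22). CANX was 1.14-fold lower (1.11 to 1.17) and DNAJC10, a disulfide reductase with a J domain, at 5.36 FPKM in knockdown input and 6.006 FPKM in control input, was 1.12-fold lower (1.04 to 1.21). DNAJC3 had 10.3 FPKM in knockdown input and 10.9 FPKM in control input. CALR, at 438 FPKM in knockdown input and 418 FPKM in control input, was 1.05-fold higher (1.02 to 1.07), and CRELD2 1.12-fold higher (1.02 to 1.24). P4HB had 111 FPKM in knockdown input and 135 FPKM in control input, 1.22-fold lower (1.18 to 1.26), whereas PDIA4 had 126 FPKM in both. PDIA3 had 73.1 FPKM in knockdown input and 73.6 FPKM in control input, and DERL2 1.99 and 2.501 FPKM in the same order. SEL1L had 4.42 FPKM in knockdown input and 5.84 FPKM in control input, 1.32-fold lower (1.17 to 1.49). SEC61B had 29.8 FPKM in knockdown input and 38.2 FPKM in control input, 1.28-fold lower (1.12 to 1.47), the lowest of the members on the log2(FPKM + 1) scale. SEC24D had 5.203 and 4.46 FPKM in the same order, 1.17-fold higher (1.03 to 1.32).

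In the signalling group DDIT3 had 6.32 FPKM in knockdown input and 4.46 FPKM in control input, 1.42-fold higher (1.01 to 1.999), from at least 93 and 59 reads. It was the highest of the 27 members. ERN1 had 2.91 FPKM in knockdown input and 2.39 FPKM in control input, 1.22-fold higher (1.04 to 1.43), and PPP1R15A 95.003 and 89.5 FPKM in the same order, 1.06-fold higher (1.01 to 1.12). ATF6 had 4.94 FPKM in knockdown input and 4.55 FPKM in control input, and EIF2AK3 4.38 and 5.10 FPKM in the same order; both intervals included no change. HERPUD1 had 7.86 FPKM in knockdown input and 7.13 FPKM in control input, and ERO1B 2.66 and 2.64 FPKM in the same order, also with intervals that included no change. Of 86 further genes of the pathway in this table, 0 reached 2-fold either way, with a median log2 ratio of 0.02.

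Levels of members can be set side by side across the tables only loosely, since each table was scaled on its own. Over the 27 shared members, log2 FPKM in DLD1-W13CM and in control input had a Pearson r of 0.92 and a Spearman rho of 0.86, with high and low genes shared. HSPA5, at 1733 FPKM in S-CAFs-w13, stood at 140 FPKM in knockdown input, 143 FPKM in control input and 165 FPKM in DLD1-W13CM. SDF2L1, a partner of DNAJB11, stood at 9.81 FPKM in S-CAFs-w13, 7.18 FPKM in DLD1-W13CM, 35.4 FPKM in knockdown input and 36.7 FPKM in control input. The log2 ratios of both comparisons had a Pearson r of 0.30 and a Spearman rho of 0.20 over the same 27 members.

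The m7G comparison asks which transcripts gain or lose m7G when METTL1, a methyltransferase, is reduced. How much of the m7G in a listed peak METTL1 itself writes was not measured. Each of the 27 members had 1 listed peak, and 19 peaks (70.4%) began within 250 bases of the RefSeq gene start, against 62.8% of the 8481 peaks whose gene had such a start. By the authors' annotation 12 lay in the 5' UTR, 8 in the coding sequence, 6 in an exon, 1 at the start codon and 0 in the 3' UTR. The members' median fold enrichment of pulled-down over input RNA was 12 in the authors' deposited table, beside 12.4 for all peaks. DNAJC10 had the highest, 71.2 (5' UTR, chromosome 2, 182716191 to 182717981), followed by DNAJC3 with 43.7 and SDF2L1 with 42.7. CANX had the lowest, 1.39, with a peak that began 45117 bases past the gene's start.

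The table does not state which line is on top of the change in m7G; it was read as knockdown over control, and the opposite reading turns every sign. Its p-values and FDRs are the authors' own and, with 1 pulled-down library per line, say nothing of how separate cultures vary. With 0.05 as the limit on the FDR of the authors' deposited table, 3 members had higher and 1 lower m7G in the knockdown, where 3.07% of all 9450 peaks were higher and 2.18% lower. HSP90B1 (exon, chromosome 12, 103930346 to 103931631) changed by 0.31 on the log2 scale, at an FDR of 4.9e-08. HSPA5 (5' UTR, chromosome 9, 125241091 to 125241330) had 0.38 with an FDR of 0.0102, and its peak began 13 bases past the RefSeq start. CALR (coding sequence, chromosome 19, 12943512 to 12943923) had 0.21 with an FDR of 1.7e-04. CANX (coding sequence, chromosome 5, 179723773 to 179726756) had -0.22 with an FDR of 1.4e-04. These calls sat on abundant transcripts and were small in size. All 4 were among the 6 members with a mean input of at least 100 FPKM, where 31% of all 239 such genes had a called peak, and 0 of the less abundant members were called, where 4.58% of all such peaks were. The remaining abundant members were PDIA4 and P4HB.

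**Figure D4:**
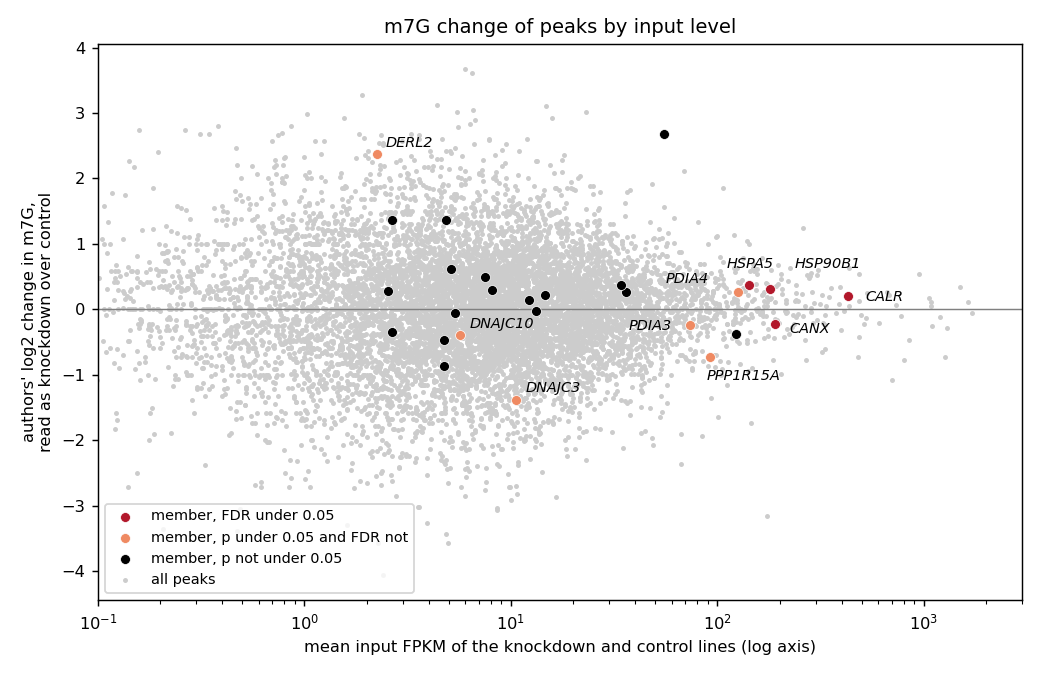
The authors' log2 change in m7G of each peak, read as knockdown over control, against the mean input FPKM of its gene on a log axis, with members as large points coloured by the authors' p-value and FDR and all peaks in grey; 68 peaks of genes under 0.1 FPKM are not drawn. The 4 members with an FDR under 0.05 lie at the right, close to 0, while the members with larger changes lie further left.

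At a p-value under 0.05 in the authors' deposited table, 5 members were higher and 5 lower, where 8.6% of all peaks were higher and 7.5% lower. Besides those above, DERL2 (coding sequence, chromosome 17, 5482861 to 5486421) was listed at 2.37 on the log2 scale, at a p of 0.0195, and PDIA4 (5' UTR, chromosome 7, 149021076 to 149028641) 0.26 with a p of 0.0282. Lower values were listed for DNAJC3, at -1.38 with a p of 0.00891, PPP1R15A, at -0.72 with a p of 0.00417, DNAJC10, at -0.39 with a p of 0.0331, and PDIA3, at -0.24 with a p of 0.0324. The corresponding FDRs of these 6 ran from 0.0776 for PPP1R15A to 0.284 for DNAJC10. HYOU1, with the largest change of any member, 2.68, had an FDR of 0.505 and an enrichment of 3.48.

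Among the sensors and transcription factors no peak had an FDR under 0.05. The sensor ERN1 had 1.36 with an FDR of 0.676, ATF6 -0.47 with an FDR of 0.611 and EIF2AK3 -0.87 with an FDR of 0.634. DDIT3 had -0.05 with an FDR of 0.681. Over all members the median log2 change was 0.22, beside 0.004 for all peaks. The change in m7G and the log2 ratio of input RNA had a Pearson r of 0.02 and a Spearman rho of -0.02 over the 27 members. Among the 86 further genes of the pathway with a peak, 3 (ERLEC1, FKBP2 and TMED2) had higher and 1 (SSR1) lower m7G by the FDR of the authors' deposited table, with the same limit of 0.05. These shares, 3.49% and 1.16%, are near or below the 3.07% and 2.18% of all peaks.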

How the data were processed

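The members and lists were chosen with earlier results of these data known. Per the submitters' processing notes, cutadapt 2.5, HISAT2 2.1.0, featureCounts 1.6.3, SAMtools 1.10, HOMER 4.10.4 and DESeq2 (no version) are named, with GRCh38, hg38 and GRCm38 as builds and no roles given. Which program called peaks is not stated. The authors deposited FPKM values (for the input columns the unit was inferred from their values), with a log2 fold change and p-values per gene. Peaks carry, per the file headers, the authors' fold enrichment and log2 change in m7G, with p-value and FDR as log10.

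Within 1e-14 of their size, FPKM quotients were whole-read quotients times 1 factor for 20805 of the 20806 genes detected in both co-culture libraries and all 9348 in both inputs. Library sizes came from RefSeq lengths of 13 mitochondrial genes, of which 5 agreed on the size, and from lengths then recovered. For the knockdown study 4845 of 9147 such lengths (53.0%) agreed on the size. Of 9091 genes with a length in both studies, 9012 (99.1%) had 1 length that was a multiple of the other. The smallest reads that left gene lengths whole and equal in both tables (equal lengths were required after the data were seen) gave exact (Clopper-Pearson) 95% intervals; PCR copies are not independent molecules. A pseudocount of 1 FPKM, a mean of at least 1 FPKM and a 2-fold limit were used. The 100 FPKM split and the 250 bases were set after the data were seen. Members at least 2-fold either way, the sensors and transcription factors and members with an m7G p under 0.05 are given in full, and of other pathway genes the 5 highest and 5 lowest past 2-fold. Promoter windows are from RefSeq. Scripts ran in Python 3.11.15 with SciPy 1.17.1 and were tested on simulated data. Planned descriptions of protein tails were not made. Alternatives were other pseudocounts, filters, scalings and thresholds.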

Additional observations from a re-analysis of the deposited data

How the results depend on the processing

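The count of members at least 2-fold higher in S-CAFs-w13 was 7 to 10 over all alternatives, and 0 members were at least 2-fold lower in any; 7 members were counted without mitochondrial genes and 10, with DNAJC3 added, at a pseudocount of 0.1 FPKM. Their median log2 ratio of 0.50 moved to 0.27 without mitochondrial genes, and was 0.46 without HSPA5, an alternative chosen after seeing the data. In the knockdown 0 members passed 2-fold in either direction under any alternative. Rescaling without mitochondrial genes left the knockdown values unchanged, and dropping the filter left the same 27 members, so neither could change this count. The interval rule, also chosen after seeing the data, left 8 members higher in S-CAFs-w13. Read as control over knockdown, 1 member had higher and 3 had lower m7G, with a median of -0.22. With an enrichment of at least 5, 0 members had lower m7G, since CANX drops out, and CALR likewise leaves 2 higher. At an FDR under 0.01, 2 members had higher and 1 had lower m7G, since HSPA5, with an FDR of 0.0102, is no longer called. Under a limit of 0.05 on the p-value in place of the FDR, 5 members had higher and 5 had lower m7G. No paired analysis was possible because each group held 1 library. Low members such as CRELD2 in the co-culture table and DNAJB9 in the knockdown table rest on few reads, and their intervals for the ratio, 0.765 to 1.36 and 0.634 to 1.21, show what that depth cannot tell from no change.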

Other observations

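An ERSE or ERSE-II match was in the RefSeq promoter window of 44 genes, 11 of them members, and 19 of those that are no members were in the co-culture table, 17 of them averaging 1 FPKM or more. In S-CAFs-w13, 3 of the 17 passed 2-fold upward and 0 downward, beside 9.08% and 7.92% of all genes, with a median log2 ratio of 0.20. The 3, named after their values were seen, were EIF2A, a translation initiation factor, at 53.4 FPKM in S-CAFs-w13 and 26.0 FPKM in DLD1-W13CM, NUCB1, a calcium-binding protein, at 16.4 and 6.65 FPKM in the same order, and the transcription factor ZNF143, at 16.7 and 6.71 FPKM. Of the 11 members with such a match 4 were at least 2-fold higher, with a median log2 ratio of 0.41, and of the 18 members with a window and neither match 4 were, with a median of 0.66.

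The knockdown table also splits its peaks into a pair of classes with no explanation in the header. The smaller class, of 849 peaks, was the same set as the peaks with a p-value under 0.05 both for the change in m7G and for that in input RNA, for all 9450 peaks. It held 6 of the 27 members, beside 849 of all 9450 peaks: HSP90B1, CALR, CANX, DNAJC10, DERL2 and PPP1R15A. HSP90B1, CALR and CANX were among the members with a mean input of at least 100 FPKM. Read as knockdown over control, HSP90B1 and DERL2 had higher m7G and lower input RNA, and PPP1R15A lower m7G and higher input RNA. CANX and DNAJC10 had lower values of both, and CALR had higher values of both. For DERL2 the counting interval of input RNA included no change, and the authors' FDR of its m7G change was 0.208.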
